A study of Rattus norvegicus with 3 samples.

Results

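The liver of the male spontaneously hypertensive rat (SHR) was compared between 1 month and 3 months of age on a single spotted 2-colour array, 1 of the 3 arrays of the study. The array was chosen by its file headers, which name the first column as SHR of 1 month and the second as SHR of 3 months, and it gave a ratio for 5652 genes. Per the labels, both RNAs came from frozen livers of male SHR and were copied into cDNA with Alexa555 or Alexa647. The other arrays set SHR against pooled RNA of age-matched normotensive Wistar Kyoto rats (WKY), 1 array at each age. No group carried a drug, diet or transgene in the labels, and how many animals gave the SHR RNA is not stated in the sources used here. With 1 array and no dye swap, no p-value was computed, and every ratio is a value without a replicate check.

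In this inbred strain blood pressure goes up between weaning and adulthood. Over the same weeks the liver of the male rat leaves its juvenile state, divides less, and, under the pulses of growth hormone that start at puberty, takes on the male pattern of secreted alpha-2u globulins, cytochrome P450 enzymes and steroid-metabolising enzymes. Hepatocytes make albumin, transferrin and most other plasma proteins throughout.

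Values are log2 ratios of 3 months over 1 month as the file headers name the columns. The labels give Alexa647 to SHR of 1 month on this array and to SHR on the strain arrays, where the headers put SHR in the second column, so the dye order leaves the direction unsettled. If the columns were exchanged, every sign within this array would turn. Dye and age cannot be told apart on it. The median raw intensity was 2405 in the 1-month channel and 1448 in the 3-month channel, which were 57.2 and 30.5 times the local background as medians over spots. Before normalisation the median log2 ratio was -0.65, so each ratio below is relative to the median gene, at -0.01 after loess normalisation. Each probe was printed on 2 neighbouring spots, and the pooled SD between these was 0.052, against an SD of 0.33 over genes. That spot SD covers printing and scanning of 1 hybridisation only.

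The tissue label was checked against 14 hepatocyte markers, all present above background in both channels. Of these, 12 were at least 10 times above background in both channels, 85.7% against 70.0% of all genes. Transthyretin (Ttr) read 24129 at 1 month and 23261 at 3 months in normalised intensity, and albumin (Alb) 9244 and 4325. Of 86 neurotransmitter receptors, listed as not known for a liver role, 65 also exceeded 10 times background, a share of 75.6%. Presence on this array therefore did not separate the hepatocyte markers from this receptor list. Whether single receptors on it are made in liver was not tested.

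At least 2-fold apart were 3 genes higher at 3 months, 0.0531% of those with a ratio, and 52 lower, 0.92%. At 1.5-fold the counts were 117 higher, 2.07%, and 305 lower, 5.4%. With the sign turned these become 52 higher and 3 lower at 2-fold, and 305 and 117 at 1.5-fold. The split depended on the normalisation. With median centring, which keeps the trend of the ratio with intensity, 215 genes were at least 2-fold higher and 69 lower, and at 1.5-fold 877 and 567.

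**Figure D1:**
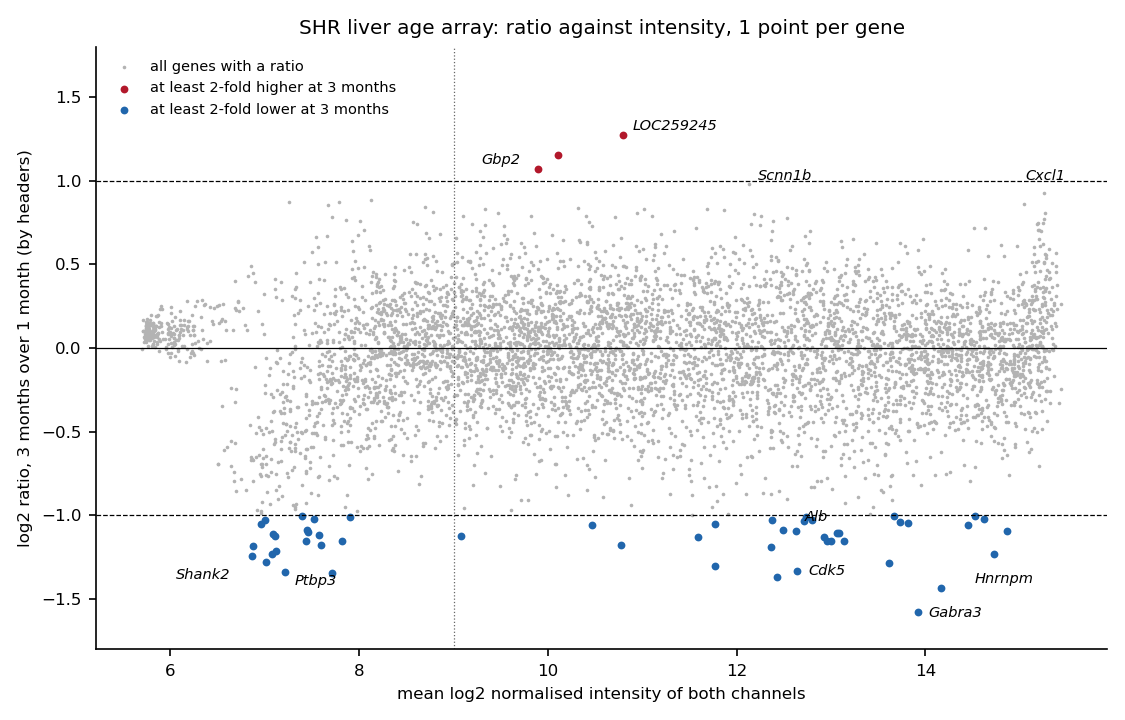
Log2 ratio of 3 months over 1 month (vertical axis) against the mean log2 normalised intensity of both channels (horizontal axis), 1 point per gene, with the 3 genes at least 2-fold higher in red and the 52 at least 2-fold lower in blue. Dashed lines mark 2-fold and the dotted line a log2 intensity of 9, below which 20 of the 52 lower genes lie.

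LOC259245, an alpha-2u globulin (PGCL5) of the urinary protein family whose liver forms are secreted by adult male rats, had the highest ratio. Its normalised intensity was 1147 at 1 month and 2772 at 3 months, and its spots gave 1.27 and 1.28, a 2.42-fold difference. Over 11 alternative processings the ratio stayed between 1.18 and 1.31. A probe for a second family member, Obp3, read 3077 and 3475, a log2 ratio of 0.18, well below that of LOC259245. Alpha-2u globulins are close paralogs, and which of their transcripts each probe captures was not tested.

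Gbp2, an interferon-induced guanylate-binding GTPase, read 657 at 1 month and 1380 at 3 months, a 2.10-fold difference, with 1.09 and 1.06 on its spots. It was at least 2-fold higher in 10 of 11 alternatives and at 0.89 in the remaining one. For Gbp2 the filter settings and the mean over probes returned the main ratio of 1.07 unchanged. The single-spot settings only split that mean into its parts. The third gene past 2-fold has no current symbol and is described in the file as a testis-specific transporter. Its ratio was 1.16 with a spot SD of 0.19. The Gbp2 promoter is shown as that of the interferon-responsive gene at the high end, and the Alb promoter as that of the hepatocyte gene at the low end, each from 250 bases before to 50 after the RefSeq start on GRCr8. Capitals mark matches, on either strand, to the core of the interferon-stimulated response element, TTTC repeated after 2 bases of any kind, in Gbp2 (chr2:234005477-234005776, plus strand), and to GTTAAT, the opening letters of the HNF1 consensus, in Alb (chr14:17906930-17907229, minus strand).
Gbp2: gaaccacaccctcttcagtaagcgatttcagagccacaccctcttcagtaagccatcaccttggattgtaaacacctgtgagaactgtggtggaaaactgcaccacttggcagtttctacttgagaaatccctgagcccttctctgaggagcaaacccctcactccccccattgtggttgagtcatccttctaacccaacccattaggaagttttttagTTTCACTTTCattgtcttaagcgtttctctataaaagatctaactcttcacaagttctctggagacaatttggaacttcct
Alb: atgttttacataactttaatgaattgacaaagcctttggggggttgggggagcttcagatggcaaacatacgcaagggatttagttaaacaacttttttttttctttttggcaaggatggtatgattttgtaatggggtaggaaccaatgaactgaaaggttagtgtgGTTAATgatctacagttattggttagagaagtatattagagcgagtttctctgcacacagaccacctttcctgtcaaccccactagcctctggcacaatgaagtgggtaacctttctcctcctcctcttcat
The first motif occurs in 3.92% of 33469 promoters of this length and the other in 7.45%. Each promoter held 1 match. A match describes letters in the window and says nothing of binding in these livers.

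Below these genes the upper end was made of genes under 2-fold. Scnn1b, which encodes a subunit of the sodium channel ENaC, read 3186 and 6295, with 0.98 on each spot. Cxcl1, a neutrophil-attracting chemokine, read 28397 and 53946, a ratio of 0.93, and Aldh1l1, a folate enzyme of hepatocytes, 25123 and 45552, a ratio of 0.86. Both of the last were near the bright end, where median centring gave 1.97 and 1.79. Fbp2, a fructose bisphosphatase of muscle, had 0.84, Ggta1, which builds the alpha-galactose epitope, 0.84, the scaffold Dlg2 0.83, the proton pump accessory subunit Atp6ap1 0.83, the potassium channel Kcnh2 0.83 and Aldoc, the brain aldolase, 0.81. Htt at 0.89, Lamp1 at 0.87 and Cryba4 at 0.86 had log2 intensities under 9, as did Fbp2 and Aldoc. With median centring these 5 had 0.49, 0.49, 0.50, 0.51 and 0.49.

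The 52 lower genes are given as a dim and a bright set, on either side of a log2 intensity of 9. Of the 20 under a log2 intensity of 9, 15 had 3-month raw intensities on both spots no higher than the brightest of 512 Empty spots in the last print row, at 87.7, while all 20 exceeded the brightest Empty spot of the 1-month channel, at 64.5. Casc3, a component of the exon junction complex, had raw intensities of 271 and 270 on its spots at 1 month and 67.5 and 72.4 at 3 months, for a ratio of -1.21. Ptbp3, an RNA-binding splicing regulator, had -1.34, the synaptic scaffold Shank2 -1.28, the metalloproteinase inhibitor Timp2 -1.24, Ptpn21 -1.23, the egg coat protein Zp2 -1.19 and Pdap1 -1.15. The size of such ratios moved with the processing. Casc3 ranged from -5.31 to -1.18 over the alternatives and Ptbp3 from -4.40 to -1.23. Cyp1a1, a dioxin-inducible P450, had -1.11, with its 3-month raw intensity also within the range of those Empty spots.

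The 32 bright genes were measured in both channels above all of those Empty spots. Gabra3, a GABA receptor subunit, read 26889 and 9007, a 2.99-fold difference, with -1.61 and -1.55 on its spots. Cdk5, a kinase best known from neurons, read 10119 and 4013, a ratio of -1.33, and Hnrnpm, a splicing factor, 41453 and 17643, a ratio of -1.23. Hnrnpm had -0.45 with median centring, while Cdk5 stayed between -1.35 and -1.19. Ptprn, a membrane protein of dense-core vesicles, had -1.19, the mitotic spindle protein Spag5 -1.16, and Cited2, a CBP and p300 binding co-regulator, -1.15. Mpc1, a subunit of the mitochondrial pyruvate carrier, read 4575 and 2090, a 2.19-fold difference.

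Of the 52 lower genes, 21 stayed at least 2-fold lower in each of the 11 alternatives that gave them a value, 15 of them with a symbol and 8 of them bright. Of the 3 higher genes, 1 stayed at least 2-fold higher, LOC259245. The filter and probe alternatives return the main ratio for any gene with 1 probe and both spots present in both channels. For such genes these alternatives could not change the counts. The bright named genes among these 21 were Gabra3, Cdk5, Ptprn, Mpc1 and the kinase Cilk1 at -1.06.

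**Figure D2:**
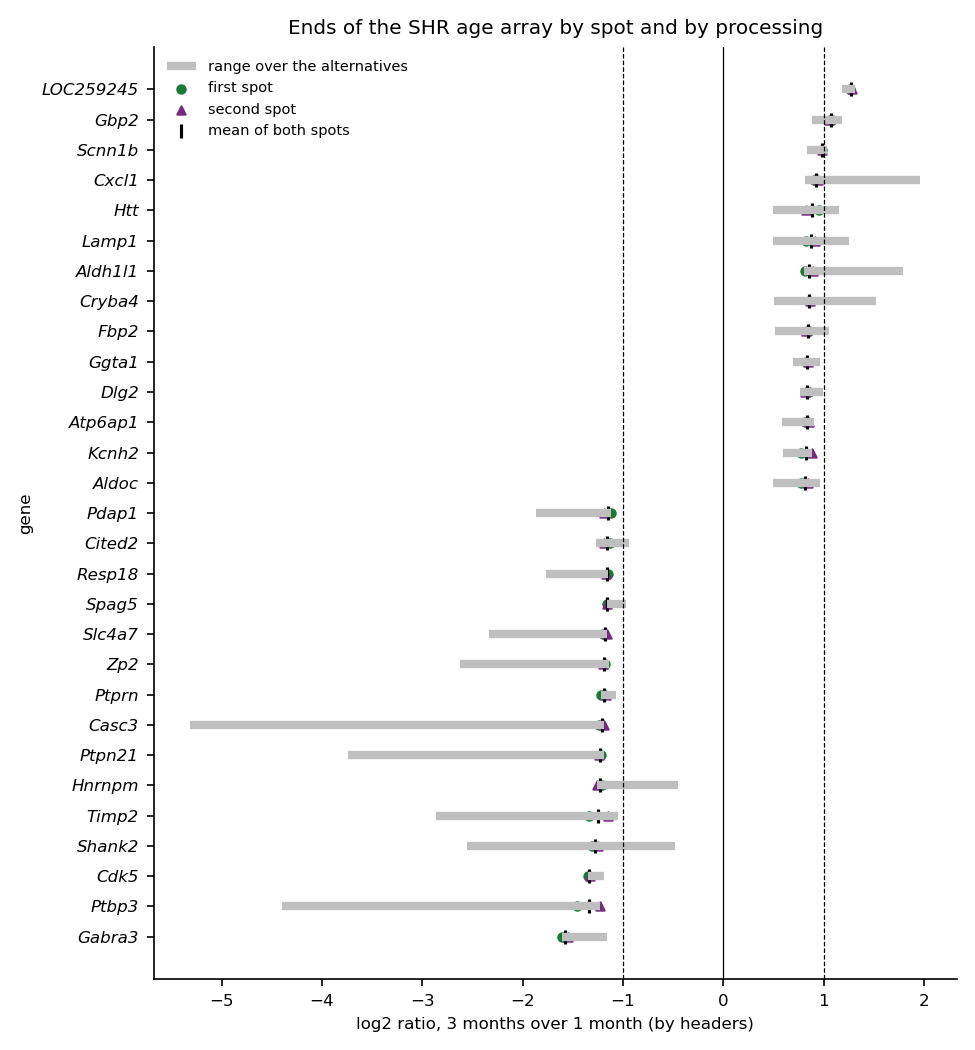
Log2 ratio of 3 months over 1 month for the named genes at both ends of the array, with each spot, their mean and, as grey bars, the range over 11 alternative processings; dashed lines mark 2-fold. Spots of a gene lie under 0.5 apart by the rule that picked these genes. Grey bars are long for dim genes such as Casc3, down to -5.31, and short for LOC259245, from 1.18 to 1.31.

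The strain arrays give a second look at age, since the SHR channel of the 3-month array can be set against the SHR channel of the 1-month array. On those arrays labels and headers keep SHR in 1 channel, and the WKY channel can be set beside it. The comparison is between 2 hybridisations, was chosen after the data were seen, shares SHR RNA with the age array by label, and had an SD over genes of 0.38 for SHR and 0.32 for WKY.

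In that comparison LOC259245 had 0.97 in SHR and -0.11 in WKY, and Gbp2 0.95 and -0.08. Albumin had -1.12 in SHR and -0.15 in WKY. Mpc1 had -0.78 and 0.09. Gabra3 had -0.54 and 0.24, Cited2 -0.42 and 0.31, and Hnrnpm -0.40 and 0.55. For these genes, picked after their values were seen, the SHR value had the sign found within the age array by the headers.

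Other genes stood near 0 or on the other side. Scnn1b had -0.04 in SHR, Cxcl1 -0.26, Aldh1l1 -0.21, Cdk5 -0.13, Spag5 0.10 and transferrin (Tf) 0.41, beside 0.98, 0.93, 0.86, -1.33, -1.16 and -0.99 within the age array. The bright lower genes had a median of -0.38 in SHR and 0.21 in WKY, with 12 of 32 at -0.5 or below in SHR. The dim lower genes had medians of -0.01 and -0.20, with 2 of 20 at -0.5 or below in SHR. On the 1-month strain array 19 of the 20 dim genes had a ratio of SHR over WKY of -0.5 or below, with a median of -1.06. On the 3-month strain array, where SHR is also in the second column, 0 of the 20 were at -0.5 or below and the median was -0.23. For the bright genes the median ratio of SHR over WKY was -0.15 at 1 month and -0.70 at 3 months. Over all genes this median was -0.01 at both ages, and between the strain arrays it was -0.02 in SHR and in WKY. The share of all genes, or of all dim genes, at -0.5 or below is not given here. The counts at that cut are therefore descriptions and are not read as unusual.

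**Figure D3:**
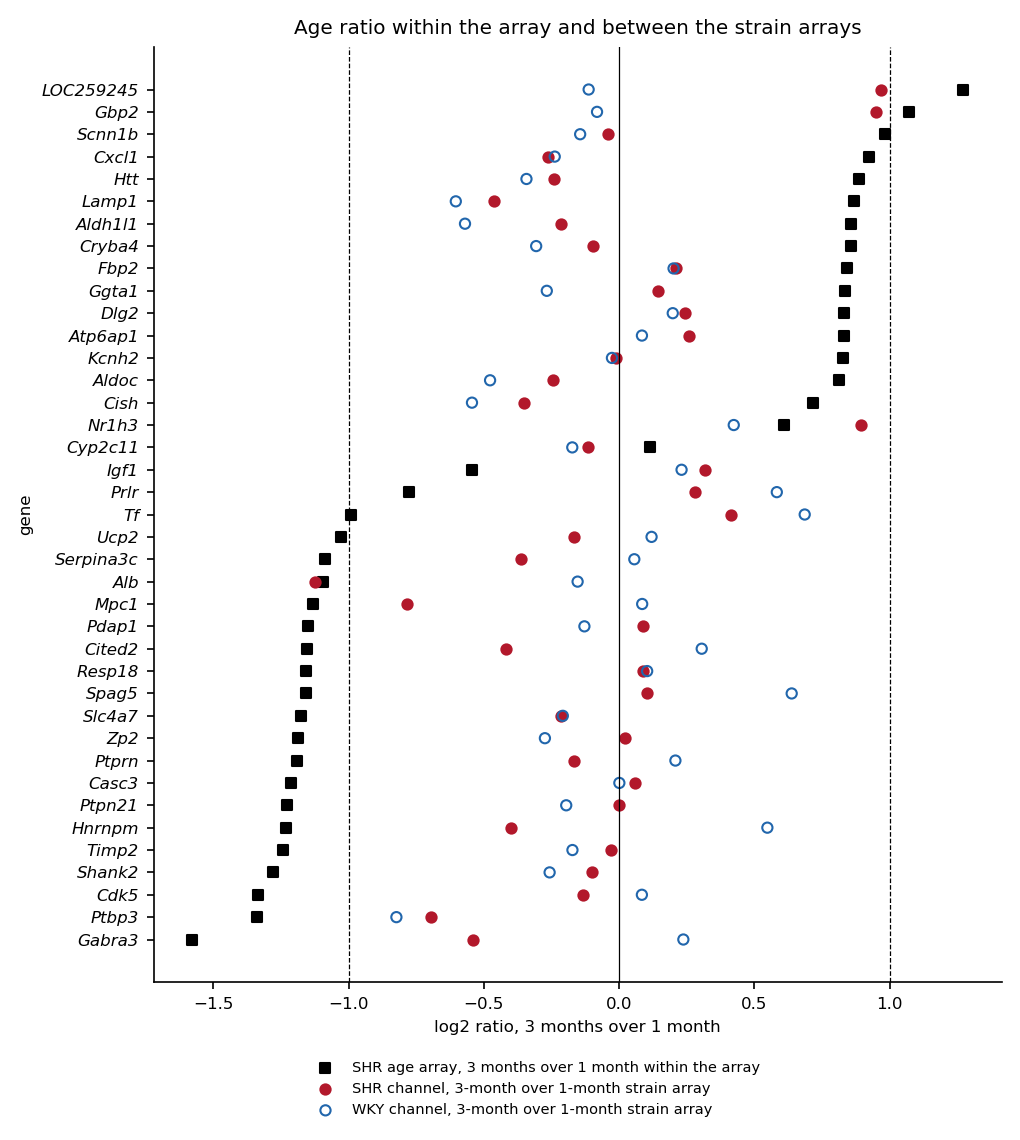
Log2 ratio of 3 months over 1 month within the SHR age array (black squares), in the SHR channel between the strain arrays (red points) and in the WKY channel between them (open blue circles), for the genes at both ends of the array and others chosen after their values were seen. LOC259245, Gbp2 and Alb have SHR values of 0.97, 0.95 and -1.12, while Scnn1b and Cdk5 have -0.04 and -0.13.

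Among 11 measured male liver genes of puberty, 1 was 1.5-fold higher, LOC259245, and 0 were lower, with a median of -0.08. Cyp2c11, the main male-specific P450 of rat liver, read 16571 and 17956, a ratio of 0.12. Cyp2c13, another male-specific P450, read 716 and 679, a ratio of -0.08, and the male-predominant steroid dehydrogenase Hsd3b5 had -0.17. The other 10 members lay within 1.5-fold. Among 21 female-biased genes, 0 were 1.5-fold higher and 3 lower, with a median of -0.22. The shares over all genes, against which this and the other list counts are to be read, were 2.07% higher and 5.4% lower. Among these were the prolactin receptor Prlr at -0.78 and the P450 Cyp2c7 at -0.76. Between the strain arrays Prlr had 0.28 in SHR and 0.58 in WKY, and Cyp2c7 0.22 and 0.31. The female-biased list as a whole had 0.07 and 0.09 there. Srd5a1, the steroid 5-alpha-reductase higher in female liver, had -0.45 within the age array and -0.14 in the SHR channel between arrays.

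Genes of the fetal and juvenile liver were near the median of the array. Of 15 measured, 0 passed 1.5-fold and the median was -0.00. Alpha-fetoprotein (Afp) read 23585 and 27772, a ratio of 0.24, the fetal growth factor Igf2 150 and 183, a ratio of 0.28, and Dlk1, a Notch-related protein of hepatoblasts, 10738 and 13025, a ratio of 0.28. Afp had 0.98 with median centring. Igf2 was dim, and its ratio ran from 0.07 with median centring to 1.10 with the authors' values. The imprinted zinc finger gene Plagl1 was lowest at -0.47, with -0.52 in SHR and -0.38 in WKY between the strain arrays.

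In the growth hormone and IGF axis, 1 of 27 genes was 1.5-fold higher and 2 were lower, with a median of -0.06. Serpina3c, a serine protease inhibitor, read 8375 and 3941, a 2.12-fold difference, and Prlr was the other lower gene. Cish, a STAT5-induced inhibitor of cytokine signalling, read 18239 and 29960, a ratio of 0.72, but had -0.35 in the SHR channel between the strain arrays. Igf1, the growth factor that the liver releases under growth hormone, had -0.54 and 0.32 in these readouts. Its carrier subunit Igfals had -0.32 and -0.49, and the receptor Ghr -0.00 and 0.10. The insulin receptor Insr had 0.48 and -0.00.

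Of 35 secreted plasma proteins, 0 were 1.5-fold higher and 5 lower, beside 2.07% and 5.4% of all genes, with a median of -0.13. Albumin read 9244 and 4325, with -1.11 and -1.08 on its spots, and transferrin, the iron carrier, 5422 and 2728. Serum amyloid P (Apcs) had -0.88, histidine-rich glycoprotein (Hrg) -0.81 and plasminogen (Plg) -0.61. In the SHR channel between arrays these 5 had -1.12, 0.41, 0.01, 0.01 and -0.26. Apcs and Hrg were dim. Coagulation and complement genes had a median of 0.03, with 0 of 31 higher and 2 lower: plasminogen, and Cd55, a complement inhibitor, at -0.63. Cd55 had -0.75 in SHR and -0.30 in WKY between the strain arrays. Apolipoproteins and lipoprotein genes had 0 of 23 higher and 2 lower, with Apoc1 at -0.65 and Apod at -0.59 and a median of -0.15.

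In fuel metabolism most genes lay within 1.5-fold. Of 42 genes of fatty acid oxidation, 40 did so and 2 were lower: the uncoupling proteins Ucp2, with 7559 and 3712 and a ratio of -1.03, and Ucp1 at -0.96. Of 49 genes of the citrate cycle and respiratory chain, 47 lay within and Mpc1 and Idh3b, a subunit of isocitrate dehydrogenase, were lower at -1.13 and -0.95. Idh3b moved with the processing, to -1.22 with normexp at offset 0 and -1.45 with the authors' values. In glycolysis, gluconeogenesis and glycogen, 43 of 47 lay within, Fbp2 and Aldoc were higher, and the muscle enolase Eno3 and Aldoa were lower at -0.76 and -0.71. Between the strain arrays Eno3 had 0.41 in SHR. Cholesterol synthesis genes had 0 of 16 past 1.5-fold. Fatty acid and triglyceride synthesis had 2 of 21 higher, Elovl5 at 0.76 and Acsl5 at 0.68, both dim. The 2 lower were the dim Gpam at -0.76 and the brighter Acacb at -0.59.

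Among 57 genes of amino acid breakdown, the urea cycle and one-carbon metabolism, 1 was higher, Aldh1l1, and 3 were lower. Among the lower genes, Hibadh of valine breakdown read 1054 and 622, a ratio of -0.76, and the tryptophan enzyme Kynu was dim at -1.05. In the SHR channel between arrays these had -0.82 and 0.01, and Hibadh had -0.59 in WKY. The urea cycle enzymes Ass1 and Asl had 0.44 and 0.47, Cps1 0.03, and tyrosine aminotransferase (Tat) 0.49. Odc1, the first enzyme of polyamine synthesis, had -0.53 within the array, and -0.64 in SHR and -0.05 in WKY between arrays.

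Of 42 cytochrome P450 genes, 0 were higher and 4 lower, and 38 lay within 1.5-fold, with a median of -0.10. Besides Cyp1a1 and Cyp2c7 these were, both dim, aromatase (Cyp19a1) at -0.74 and Cyp4b1 at -0.72. Conjugation genes had 1 of 45 higher, the dim Gstt1 at 0.64, and 1 lower, the aldehyde dehydrogenase Aldh2 at -0.61. Among bile acid genes, Slc22a7, an organic anion transporter of the hepatocyte, read 1281 and 2206, a ratio of 0.78, and had 0.28 in SHR between arrays. Among 37 nuclear receptors the 1 past 1.5-fold was Nr1h3, the oxysterol receptor LXR alpha, which read 1968 and 3002. Its ratio of 0.61 stood beside 0.90 in SHR and 0.42 in WKY between the strain arrays. Circadian genes had 0 of 14 past 1.5-fold, with Cry2 lowest at -0.50.

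Of 23 genes of the interferon response and antigen presentation, 1 was 1.5-fold higher, Gbp2, and 2 lower, with a median of 0.08. Ifit1, an interferon-induced RNA-binding protein, read 838 and 499, a ratio of -0.75, and the interferon-induced chemokine Cxcl10 had -0.66. Psme1, an interferon-induced proteasome activator, had 0.57. Among 77 cytokine, chemokine and receptor genes, 1 was higher, Cxcl1, and 5 were lower, with a median of -0.10. The lymphocyte chemokine Xcl1 read 5029 and 2430, a ratio of -1.05, and the growth factor Csf2 had -0.63. Interleukin 6 (Il6), just within 1.5-fold at -0.56, had -1.03 in SHR and -0.09 in WKY between arrays. Of 48 acute phase, heat shock and antioxidant genes, 0 passed 1.5-fold.

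Cell cycle genes had 0 of 41 higher and 6 lower, where all genes had 2.07% and 5.4%, with a median of -0.02. Of the 6, Cdk5 and Spag5 are described above, and Cdc20 at -1.03 and cyclin D2 (Ccnd2) at -0.68 were dim. Cdk4, the kinase of G1 progression, read 1828 and 1016, a ratio of -0.85, with -0.49 in SHR and 0.21 in WKY between arrays. The mitotic kinase Aurka had -0.68, and 0.00 in SHR between arrays. The other 35 members lay within 1.5-fold. Ribosomal protein genes had 1 of 50 higher, Rpl5 at 0.61, and 3 lower, the dim Rps3a at -0.85, Rpl15 at -0.69 and Rpl14 at -0.68, with a median of -0.01.

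Among genes tied to blood pressure, 0 of 62 angiotensin, kallikrein and vasoactive genes were 1.5-fold higher and 4 lower, with a median of -0.04. The thromboxane receptor Tbxa2r read 6691 and 3671, a ratio of -0.87, the natriuretic peptide Nppb had -0.66, and the prostaglandin receptor Ptger2 and the peptide receptor Calcrl were dim at -0.94 and -0.78. Angiotensinogen (Agt), made mostly by the liver, read 31506 and 27670, a ratio of -0.19. Of 23 sodium channel, adducin and ion transport genes, 1 was higher, Scnn1b, and 2 lower, the kidney cotransporter Slc12a1 at -0.91 and the adducin Add3 at -0.71. Add3 had -0.55 in SHR and -0.35 in WKY between the strain arrays. Iron and heme genes had 0 of 24 higher and 5 lower, against 2.07% and 5.4% over all genes, with a median of -0.19. Among these were transferrin and, all dim, Ireb2 at -0.88, the ferritin subunit Fth1 at -0.67 and Alas2 at -0.61.

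Matrix genes had 0 of 49 higher and 3 lower, with a median of -0.09. Besides the dim Timp2, Mmp9, a gelatinase, read 1088 and 556, a ratio of -0.97 that stood beside -0.61 in SHR and -0.25 in WKY between arrays. The proteoglycan Bgn, also dim, had -0.59. Neurotransmitter receptors, listed as not known for a liver role, had 3 of 86 higher and 11 lower, beside 2.07% and 5.4% over all genes, and a median of -0.05. Gabra3, Chrne at -1.01 and the dim Gabrr1 at -1.01 were past 2-fold.

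**Figure D4:**
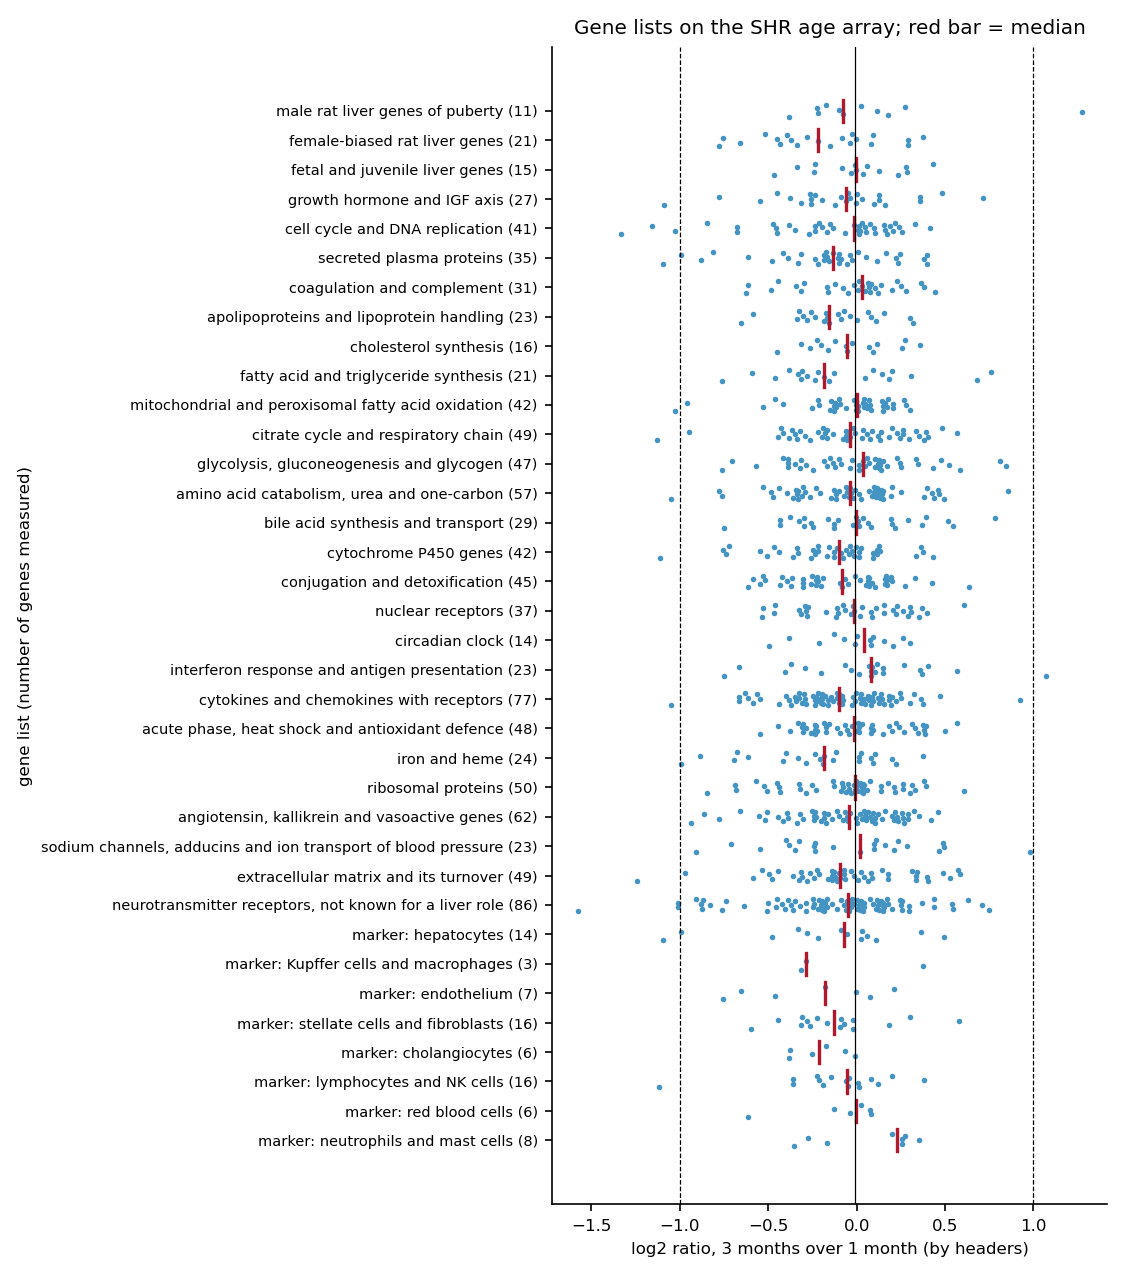
Log2 ratio of 3 months over 1 month for each measured member of the 36 gene lists (points), with the median of each list as a red bar, the median of all genes as a solid line and 2-fold as dashed lines. Medians of the lists lie between -0.29 and 0.23, and LOC259245 at 1.27 and Gabra3 at -1.58 are the highest and lowest points.

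Medians of the marker lists of other cells ran from -0.29 for Kupffer cells and macrophages to 0.23 for neutrophils and mast cells, the lowest and highest of the 36 lists, beside -0.01 for all genes. Stellate cell and fibroblast markers had 0 of 16 higher and 1 lower, desmin (Des) at -0.60, with a median of -0.13 and 12 of 16 at least 10 times above background. Lymphocyte and NK cell markers had 0 of 16 higher and 1 lower, the dim receptor Klrk1 at -1.12, with a median of -0.06. Endothelial markers had a median of -0.18 and 2 of 7 lower, both dim, Icam1 and Sele. Kupffer cell, cholangiocyte and neutrophil or mast cell markers had 0 of 3, 0 of 6 and 0 of 8 past 1.5-fold. The cholangiocyte median was -0.21, with 6 of 6 markers below 0. Red cell markers had Hbb at 0.08 and Alas2 at -0.61. In bulk tissue fewer cells of a type and less RNA per cell cannot be told apart, and the part of cell makeup in the ratios above was not tested.

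The ratio varied with position on the slide. Medians of the 32 subgrids ran from -0.22 in the upper left to 0.12. With loess within each subgrid Shank2 had -0.48 in place of -1.28. A band of print rows 8 and 9 in odd subgrid rows was dark, with 292 of 508 spots (57.5%) under 2 times background in both channels against 169 of 10886 (1.55%) elsewhere. Hba-a1, Vcam1 and Prf1 lay there, with ratios of 0.03, -0.00 and 0.12 at the floor of the array.

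**Figure D5:**
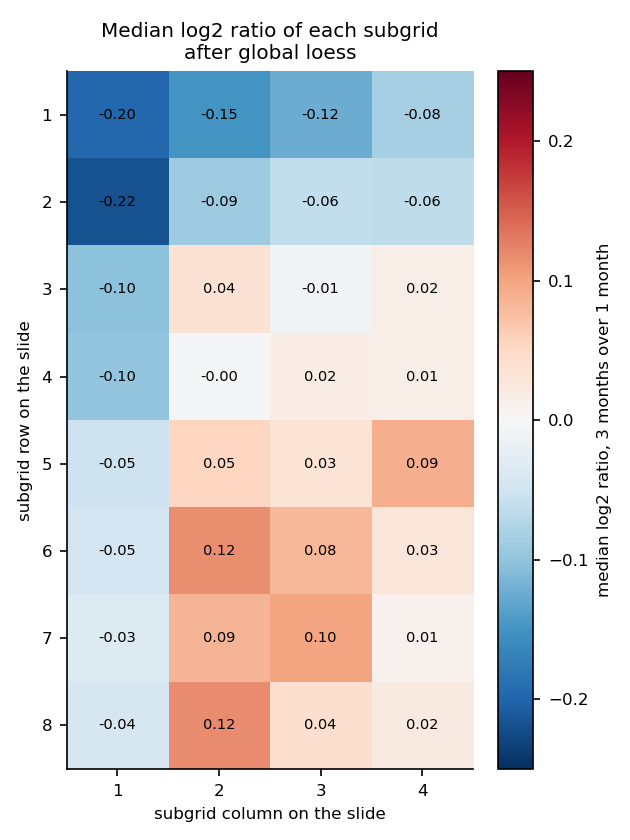
Median log2 ratio of 3 months over 1 month in each of the 32 subgrids, laid out as on the slide (rows and columns of subgrids), after global loess normalisation. Values run from -0.22 at the upper left to 0.12 in the lower rows.

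Of 37 genes with several probes, 12 had probes over 0.5 apart. Cyp2c12, the female-specific P450, had -0.88 on a dim probe and -0.03 on a bright one, the vesicle tether Uso1 -0.90 and 0.28, and the kinase Dclk1 -0.74 and 0.14. For these genes the probe decided whether the gene counted as lower, which the spot SD does not show.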

How the data were processed

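The deposited scanner file holds, per the file headers, the mean raw intensity of both channels with the mean and SD of their background intensity around each spot, net intensities and a ratio that the authors computed from these. A separate table of the authors holds log2 values, without stated scale or direction. Spot by spot these log2 values matched the negative log2 of the deposited ratio, second column over first, with a median absolute difference of 0.0035, up to 0.086 at log2 intensities of 9 or more and a 95th percentile of 1.12 below. Their median was 0.0202. The scanner software is not stated in the sources used here.

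Background was removed from the raw intensities by normexp in limma 3.58.1 (R 4.3.3, offset 50) and normalised within the array by global loess (span 0.3). Of 12288 spots, 894 Empty or unnamed spots were dropped, and spots were kept where the foreground exceeded background by 2 SD in at least 1 channel. Both channels did so for 11267 of 11394 gene spots, and the highest raw intensities were 42938 and 62408. Both spots of a probe were averaged, and the brightest of several probes stood for a gene. Of 5652 genes, 4419 had a symbol, from RefSeq by accession, symbol or synonym or else as the file gives it. Between strain arrays, single channels were compared after lowess on intensity (fraction 0.3; Python 3.11.15, numpy 2.4.6, pandas 2.3.3, statsmodels 0.14.6; plots with matplotlib 3.10.9).

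The array and the 36 gene lists, 8 of them cell type markers, were chosen with earlier results of these data known. Genes named by rule were, among genes with a symbol and with both spots present and under 0.5 apart, the 15 highest and 15 lowest, up to 5 per list with the largest ratios, all members of the male, female-biased, fetal and growth hormone lists, genes 2-fold higher, the 10 brightest, and genes whose probes differed. Other list members, and genes only past 2-fold, were picked once their values were known. Some genes that the rule names are not reported here. The steps were tested on simulated data with known changes, 50 probes for each size. True log2 ratios of -1 and 1 came back with medians of -0.916 and 0.892. True ratios of -0.585 and 0.585 came back at -0.548 and 0.525, and 10 and 8 of 50 probes passed 1.5-fold. Changes of these sizes were thus recovered somewhat too small, and most of those at 1.5-fold were missed by that cut. Of 5497 unchanged probes, 0 passed it. The simulated noise was only about as large as the spot SD, so a count of 0 was fixed nearly in advance. The simulation left out the wider spread over genes and the differences between subgrids. It therefore cannot show how often unchanged genes pass the cut on the real array. Alternatives covered background correction, normalisation, filters, probes, single spots, the authors' values and the turned sign.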

Additional observations from a re-analysis of the deposited data

Results flagged for a closer look

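Signal appeared in spots that the files name Empty. Of 366 such spots outside the last print row, 97 were brighter in both channels than all 512 Empty spots of the last row. The brightest read 25878 at 1 month and 22198 at 3 months, against 64.5 and 87.7 as the highest values in the last row. The sources used here do not say what these spots hold.

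Among the 30 genes at the ends of the age array, 6 had between-array values of opposite sign in SHR and WKY when single channels of the strain arrays were compared, both past 0.10, which is 2 times the spot SD of 1 hybridisation. That distance leaves out the spread between arrays, where the SD over genes was 0.38 for SHR and 0.32 for WKY, so the values do not show a change in either strain. Cited2 had -0.42 in SHR and 0.31 in WKY, Gabra3 -0.54 and 0.24, Hnrnpm -0.40 and 0.55, and Ptprn -0.17 and 0.21. LOC259245 had 0.97 and -0.11, and Ggta1 0.14 and -0.27. The share of all genes with such opposite signs is not given here, so the count of 6 of 30 is not read as unusual. With 1 array at each age behind these values, the difference between the strains was not tested.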

How the results depend on the processing

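No paired analysis was possible because each array is a single sample and the labels carry no shared replicate numbers. Genes at least 2-fold higher at 3 months numbered 3, but 16 with normexp at offset 0, 17 with plain subtraction, 215 with median centring, 56 with the authors' deposited log2 values and 52 with the sign turned. Genes at least 2-fold lower numbered 52, but 120, 123 and 129 with offset 0, subtraction and the authors' values, 3 with the sign turned and 32 at log2 intensities of 9 or more. At 1.5-fold the 117 higher genes became 204, 210, 877, 223 and 305 with offset 0, subtraction, median centring, the authors' values and the sign turned, and the 305 lower genes 567 with median centring, 117 with the sign turned and 182 among bright genes. Median centring moved the median of the male puberty list from -0.08 to -0.23 and that of the female-biased list from -0.22 to -0.37, and the mean over probes moved the latter to -0.28. In the SHR channel between the strain arrays, a comparison added once the data were known, 9 genes at least 2-fold lower had values just above 0. Casc3 had 0.059, Cdc20 0.0096, Cyp1a1 0.0057, Kynu 0.0060 and Pdap1 0.0904. Ptpn21 had 0.0017, Resp18 0.0891, Spag5 0.10 and Zp2 0.0205. The SD over genes was 0.38 in that comparison, so these values do not show a turned sign. All but Spag5 had log2 intensities under 9. Why they differ from the age array was not tested. Over single genes and the other lists, 1038 values moved by more than the spot SD and 2432 by less. Low intensity limited 24.7% of genes, those under a log2 intensity of 9. By signal over background, 70.0% of genes were at least 10 times above background in both channels.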

Other observations

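Prkcb, a protein kinase C isoform, and Bambi, a decoy receptor for TGF-beta family ligands, were also past 2-fold lower within the age array, at -1.10 and -1.11, and were named after their values were seen. Ratios of Prlr and Igf1, both under control of growth hormone, stood at -0.78 and -0.54 within the age array and at 0.28 and 0.32 in the SHR channel between the strain arrays, so the 2 readouts of age gave opposite signs for them. Tf had -0.99 and 0.41. Alb had -1.10 and -1.12, LOC259245 1.27 and 0.97, and Gbp2 1.07 and 0.95. Both readouts rest on single hybridisations, and which of them reflects the livers was not tested.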
